A study of Mus musculus with 24 samples.

Results

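The long noncoding RNAs described here are the genes annotated as lincRNA or antisense RNA that cultured mouse pancreatic ductal adenocarcinoma (PDAC) cells expressed at a mean of at least 2 CPM (a gene's count scaled by the total count of its library) over 24 RNA-seq libraries. The rule kept 603 of the 8620 rows annotated as long noncoding, in tables of 55401 genes. Of these, 127 were annotated as lincRNA, a noncoding gene between coding genes, and 476 as antisense, a noncoding gene on the strand opposite another gene. Most have only a clone name: 393 carry a Gm clone name and 140 a RIKEN clone name, 39 are named as the opposite strand of a gene, and 31 have another name. The members were selected on their mean CPM over all libraries, so that level is a description. Just inside the limit stood Gm49602 and Gm16133, both at a mean of 2.00 CPM, and Gm44264 at 2.02 CPM, and just outside it Gm47204, Gm37035 and Gm11537 at 1.99 CPM each. In 384 members every one of the 11 groups averaged at least 2 CPM, while 47 members reached that level in 5 groups or fewer. Such a member could pass through the groups where it was high, so its changes and p-values below are descriptions. The counts of changed members are descriptions too, set beside the same share over all genes tested.

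The libraries fall into 3 sets of cells. KPsh cells, known to carry a doxycycline-inducible hairpin against Trp53, the gene of the tumour suppressor p53, were grown off doxycycline (off-dox, 3 libraries) or kept on it (on-dox, 3 libraries) for 10 days, so that p53 is restored in the off-dox cells and silenced in the on-dox cells. KPnull cells, which lack p53 of their own, carried an inducible construct for wild-type p53 (p53WT), for p53 mutated in the first (TAD1m), the second (TAD2m) or both (TAD12m) of its transactivation domains, or vector alone, with 2 libraries each. All 10 KPnull libraries came from cells given 1 µg/ml doxycycline for 48 h. In the Pcyt2 set, KPsh cells carried a guide RNA targeting Pcyt2 (sgPcyt2), or the guide together with a guide-resistant cDNA (sgPcyt2+Pcyt2-cDNA, here the cDNA cells), and were grown off-dox or on-dox for 6 days, with 2 libraries in each of the 4 groups. Pcyt2 encodes an enzyme of phosphatidylethanolamine synthesis. The labels do not say whether the libraries of a group came from separate cultures. The p-values below therefore cover the spread among libraries alone, part or all of which may be technical.

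Long noncoding RNAs are spliced or unspliced transcripts without a long reading frame. Some are abundant structural RNAs of the nucleus, such as Malat1 in nuclear speckles and Neat1, the scaffold of paraspeckles. Others are the precursors of small RNAs, silence neighbouring genes on one parental allele, or are known only as transcripts that start beside or run opposite to a coding gene. p53 is a transcription factor that binds DNA as a tetramer, and its targets include Cdkn1a, the gene of the cell-cycle inhibitor p21. The transactivation domains are the parts of p53 that recruit the transcription machinery, and mutation of the first is known to weaken the activation of many targets.

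Library totals ran between 9393966 and 19431249 counts, and the 603 members together took 0.722% to 0.984% of them. Trp53 followed the labels. It stood at 255, 247 and 258 CPM in the off-dox KPsh libraries, against 21.9, 21.6 and 20.7 CPM in the on-dox ones, and at 513 to 673 CPM in the libraries with a p53 form, against 6.15 and 4.54 CPM with vector. Among the Pcyt2 libraries it was less separated, with 42.5 and 42.2 CPM in off-dox sgPcyt2 cells and 97.4 and 87.2 CPM in off-dox cDNA cells, against 22.8 and 18.8 CPM and 19.1 and 20.03 CPM in the matching on-dox cells. Pcyt2 transcripts reached 21.5 and 17.97 CPM in off-dox and 28.8 and 27.9 CPM in on-dox sgPcyt2 cells, and between 2204 and 2598 CPM in the cDNA cells. The ductal and epithelial genes Krt8, Krt18, Krt19 and Cdh1 were high in every library and Pdx1 stood at 23.9 to 50.3 CPM, while Epcam was near 0, at most 1.36 CPM. Among markers of fibroblasts and of immune, endothelial and acinar cells, Cd68, Cdh5 and Cela1 reached 9.46, 8.20 and 4.76 CPM, and Col1a1, Pdgfrb, Acta2, Ptprc, Pecam1, Cpa1 and Prss1 stayed under 1 CPM.

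The 2 most abundant members set much of the class. Malat1 averaged 1076 CPM over all libraries, 12.97% of the members' sum, and Neat1 averaged 630.5 CPM, 7.60% of it. The next, Gm17638, averaged 124 CPM, and the median member 5.67 CPM. By mean level, 259 members lay between 2 and 5 CPM, 169 between 5 and 10, 157 between 10 and 50, and 18 above 50 CPM. Per kilobase of counted exon, on the scale of CPM per kb, Malat1 led at 154, followed by Gm50251 at 148, the small cytoplasmic RNA Bc1 at 143, Gm17134 and Gm45552 at 124 each, Gm44170 at 119, Gm37401 at 114, Gm43126 at 98.6, Gm50163 at 88.4 and Gm17122 at 79.3. Apart from Malat1 and Bc1, those 8 lie wholly or partly over exons of highly expressed coding genes, among them Gm50251 over Ppp1ca, Gm17134 over Ptbp1, Gm44170 over Sec61a1, Gm37401 over Rhoa, Gm43126 over Ccnd2, Gm50163 over Matr3 and Gm17122 over Coro1c. The levels of those 8 are therefore uncertain. The mean of Bc1 came from few libraries, with a median of 4.87 and a range of 0 to 887 CPM per kb.

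The tables were counted without regard to strand, per the file headers, so reads of a member and of a gene on the other strand cannot be told apart where their exons overlap. Against an annotation of the same genome build, 526 of the 602 members found there share exon bases with another gene and 491 with a protein-coding gene, 483 of them on the opposite strand. In 142 members more than 50% of the exon bases are shared, and 33 lie fully within exons of other genes. The overlapping coding gene was usually the more abundant: of the 485 members with a tested coding partner in the KPsh table, the partner had the higher mean CPM in 474. After p53 restoration in KPsh cells, 243 of those 485 members changed, where 64.8% of all genes tested did, and in 208 the partner changed in the same direction, in 7 in the opposite direction, and in 28 it was not called. With p53WT, 153 of 486 changed, where 50.6% of all genes did, 138 with the partner in the same direction, none against it and 15 with a partner not called. Across those genes the log2 changes of member and partner had a Spearman correlation of 0.79 in KPsh cells and 0.83 with p53WT, a description over gene pairs that share libraries and in part reads. The part of shared reads in these changes was not tested. Members without exon bases shared with any tested gene, 89 in the KPsh fit, 87 in the KPnull fit and 90 in the Pcyt2 fit, are therefore given apart below. For 77 members no shared exon bases were found with any gene, tested or not. Of those 77, 18 still overlap the span of a coding gene, and reads of its unspliced transcripts were not separated from theirs. Free of overlap below refers to exon bases of tested genes only.

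**Figure D1:**
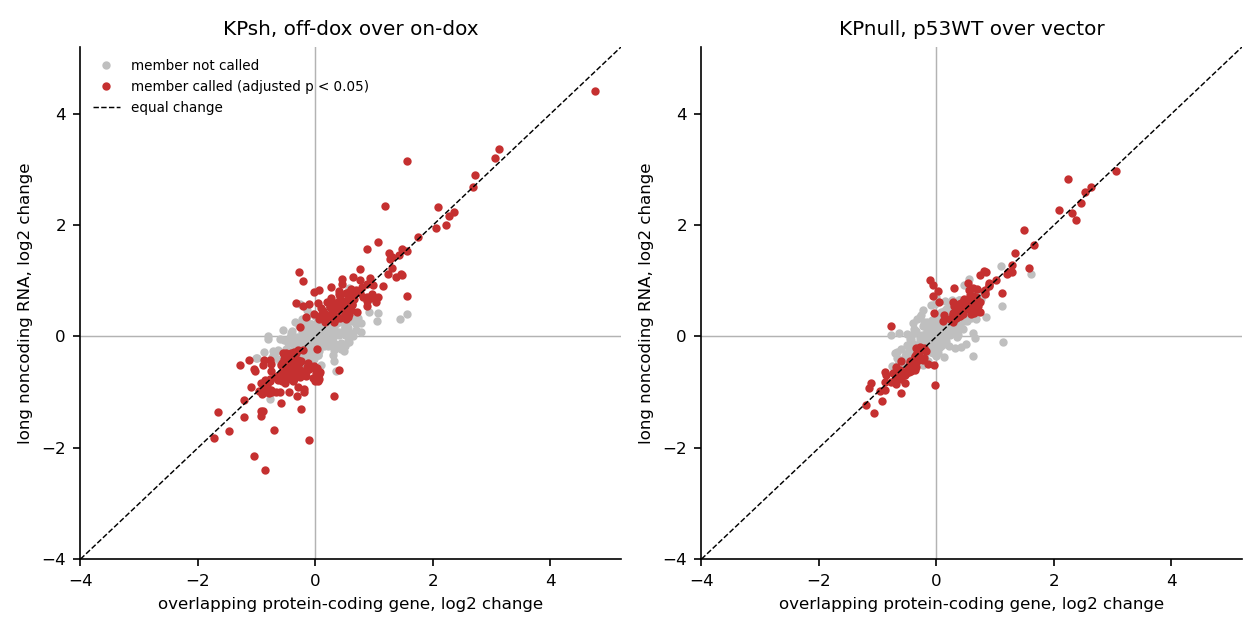
Log2 change of each long noncoding RNA (vertical) against that of the protein-coding gene whose exons it shares most (horizontal), for off-dox over on-dox KPsh cells (left) and p53WT over vector in KPnull cells (right). Red points are members called at an adjusted p under 0.05, grey points the others, and the dashed line marks equal change. Most called members lie near the line, with Spearman correlations of 0.79 (485 pairs) and 0.83 (486 pairs).

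Restoring p53 changed members in both directions, and a smaller share of them than of all genes passed the test. In KPsh cells, 153 members rose and 148 fell off-dox among 598 tested, 50.3% of them, against 64.8% of all genes tested, 33.1% higher and 31.7% lower. In KPnull cells, p53WT raised 119 and lowered 85 of 599 members, 34.1% against 50.6% of all genes, 25.5% higher and 25.1% lower. The share was also the smaller one within strata of level. In KPsh cells 40.6% of members at 2 to 5 CPM were called, against 56.4% of coding genes at that level, and at 10 to 50 CPM 63.1% of members against 67.2% of coding genes. In the Pcyt2 set the off-dox state raised 212 and lowered 189 of 595 members in sgPcyt2 cells, 67.4% against 76.3% of all genes, and raised 218 and lowered 171 in cDNA cells, 65.4% against 73.5%. The median member shifted by -0.04 log2 units in KPsh cells and by 0.05 with p53WT, against 0.01 and -0.01 for all genes tested. Of the markers of other cell types, Cd68 and Cdh5 moved with p53 state. Cd68 averaged 7.46 CPM in off-dox KPsh cells, against 2.27 CPM on-dox, and 8.15 CPM with p53WT, against 1.95 CPM with vector. Cdh5 averaged 7.45 CPM in off-dox sgPcyt2 cells, against 2.49 CPM on-dox. Ptprc and Pecam1, which define immune and endothelial cells, stayed at or below 0.505 CPM in every library. In these bulk cultures fewer cells of a kind and less RNA per cell cannot be told apart, the part of either marker in the counts was not tested, and CPM are relative to each library's total.

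Members that share no exon bases with a tested gene also changed in both directions. Of these, 26 rose and 18 fell among 89 in off-dox KPsh cells, 29.2% and 20.2%, against 33.1% and 31.7% of all genes tested. With p53WT 17 rose and 21 fell among 87, 19.5% and 24.1%, against 25.5% and 25.1% of all genes. In the Pcyt2 set they leaned upward, with 48 higher and 20 lower of 90 off-dox in sgPcyt2 cells and 46 higher and 15 lower in cDNA cells. Their median log2 change was 0.43 and 0.45 there, against 0.02 and 0.02 for all genes tested. All genes were called higher in 39.2% and lower in 37.1% of cases in sgPcyt2 cells, and in 37.3% and 36.3% in cDNA cells.

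**Figure D2:**
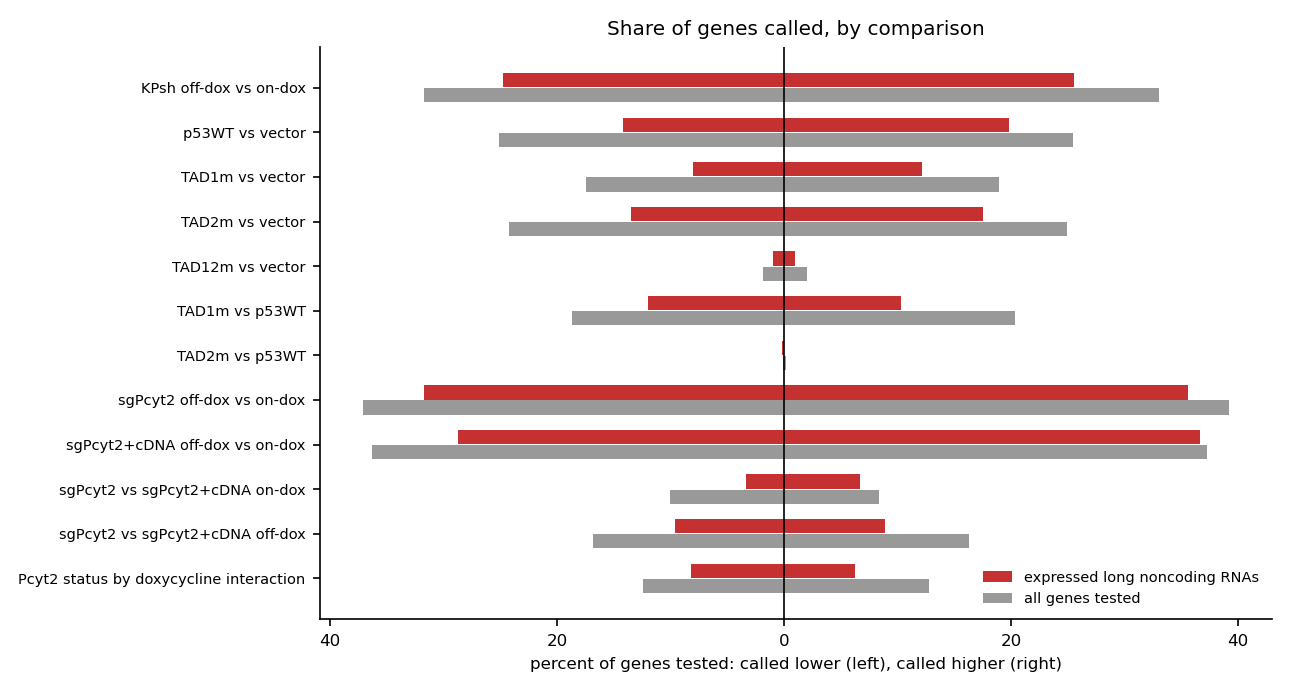
Percent of genes called at an adjusted p under 0.05 in each of 12 comparisons (rows), higher to the right and lower to the left, for the expressed long noncoding RNAs (red) and for all genes tested (grey). In each row the members have the smaller share called, for example 50.3% against 64.8% in KPsh cells.

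Among the structural RNAs of the nucleus, Malat1 and Neat1 rose with p53WT and in the Pcyt2 set, and neither shares exon bases with a coding gene. Log2 changes here and below are given ± SE, and adjusted p-values come from edgeR's quasi-likelihood test with Benjamini-Hochberg adjustment over all genes tested. Malat1 (chromosome 19, 5795690 to 5802672, minus strand, mm10) had 1983 and 2249.5 CPM in the p53WT libraries, against 979 and 923 CPM in the vector libraries, a log2 change of 1.20 ± 0.09, adjusted p = 7.0e-07. TAD2m gave 1991 and 2207 CPM (1.18 ± 0.09, adjusted p = 7.8e-07). TAD1m gave 1098 and 1295 CPM and TAD12m 1189 and 1080.5 CPM, changes of 0.32 ± 0.09, adjusted p = 0.016 for TAD1m and 0.25 ± 0.09, adjusted p = 0.23 for TAD12m. The TAD1m call ended without TAD1m replicate 2 (adjusted p = 0.15) and without vector replicate 2 (adjusted p = 0.092). Set directly against p53WT, TAD1m differed by -0.87 ± 0.09 (adjusted p = 1.6e-05). In KPsh cells Malat1 had 517, 650.2 and 662 CPM in the off-dox KPsh libraries, against 527, 469 and 641 CPM in the on-dox KPsh libraries, and these overlapping values gave no call (0.21 ± 0.15, adjusted p = 0.26). The largest change came in the Pcyt2 set, where Malat1 had 1988 and 1898 CPM in the off-dox sgPcyt2 libraries, against 308 and 338 CPM in the on-dox sgPcyt2 libraries, 2.56 ± 0.04 (adjusted p = 1.5e-38). The cDNA cells showed 1135 and 1158 CPM in the off-dox cDNA libraries, against 259 and 271 CPM in the on-dox cDNA libraries, 2.09 ± 0.04 (adjusted p = 2.9e-35). The off-dox effect was larger without the cDNA by 0.47 ± 0.06, adjusted p = 3.7e-08.

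Neat1 (chromosome 19, 5824708 to 5845478, minus strand) lies next to Malat1 and is known as a p53 target. It had 305, 353 and 326 CPM in the off-dox KPsh libraries, against 272, 249 and 277 CPM in the on-dox KPsh libraries, with no overlap and a log2 change of 0.35 ± 0.06, adjusted p = 2.8e-05. With p53WT it had 1039 and 996 CPM in the p53WT libraries, against 787 and 816 CPM in the vector libraries (0.39 ± 0.06, adjusted p = 8.4e-05), and with TAD2m 982 and 999 CPM. The TAD1m libraries were at 897 and 981 CPM, a change of 0.22 ± 0.06, adjusted p = 0.011. That call was lost when TAD1m replicate 2 (adjusted p = 0.19) or the first vector library (adjusted p = 0.086) was left out. The TAD1m and p53WT libraries did not differ at the threshold (-0.16 ± 0.06, adjusted p = 0.051). TAD12m libraries were at 834 and 945 CPM, with no call against vector (0.14 ± 0.06, adjusted p = 0.33). In the Pcyt2 set Neat1 had 894 and 801 CPM in the off-dox sgPcyt2 libraries, against 259.6 and 241 CPM in the on-dox sgPcyt2 libraries, 1.74 ± 0.04, and 684 and 705 CPM in the off-dox cDNA libraries, against 241 and 247 CPM in the on-dox cDNA libraries, 1.49 ± 0.04. Malat1 and Neat1 summed to 2790 ± 129 CPM in off-dox sgPcyt2 cells, against 573 ± 7.81 CPM on-dox (SD, n = 2 each), while the other 601 members summed to 6905 ± 81.4 CPM, against 6931 ± 107 CPM.

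**Figure D3:**
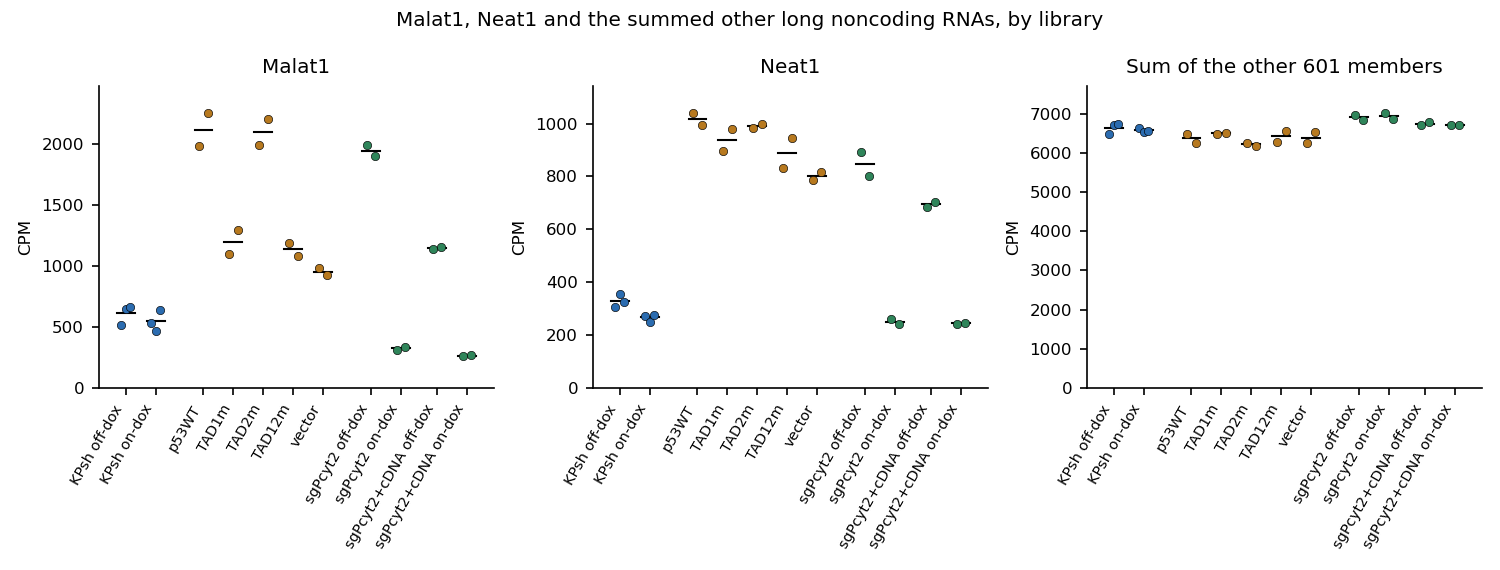
CPM of Malat1 (left), of Neat1 (middle) and of the other 601 members summed (right) in each library (points), with group means (black lines), for the KPsh, KPnull and Pcyt2 sets, which were tabulated separately. Malat1 was 1988 and 1898 CPM in off-dox sgPcyt2 cells, against 308 and 338 CPM on-dox, while the summed others stayed between 6187 and 7007 CPM in all 24 libraries.

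Other members are known as nuclear or decoy RNAs. Of the 8 such members, which include Malat1, Neat1 and Pvt1 and the RNAs Kcnq1ot1, Ftx and Jpx described below, 4 rose and 2 fell in off-dox KPsh cells, where 33.1% of all genes rose and 31.7% fell. With p53WT 3 rose and 2 fell, against 25.5% and 25.1% of all genes. In the off-dox state 6 rose and 1 fell in sgPcyt2 cells, against 39.2% and 37.1% of all genes, and 5 rose and 1 fell in cDNA cells, against 37.3% and 36.3%. Oip5os1, also called Cyrano, which directs the decay of the microRNA miR-7, had 135 and 116 CPM in the off-dox sgPcyt2 libraries, against 70.5 and 71.9 CPM in the on-dox sgPcyt2 libraries (0.79 ± 0.06, adjusted p = 3.1e-16). It rose less in off-dox KPsh cells (0.24 ± 0.07, adjusted p = 0.0049), a call lost without on-dox KPsh replicate 1 (adjusted p = 0.054). Oip5os1 showed no call with p53WT (0.00 ± 0.07, adjusted p = 0.99). TAD1m raised it above vector (0.30 ± 0.07, adjusted p = 0.0032) and above p53WT (0.30 ± 0.07, adjusted p = 0.0032). The call of TAD1m against p53WT ended without p53WT replicate 1 (adjusted p = 0.056). Morrbid, a regulator of the neighbouring apoptosis gene Bcl2l11, had 12.5, 11.02 and 15.4 CPM in the off-dox KPsh libraries, against 8.56, 7.61 and 7.51 CPM in the on-dox KPsh libraries, 0.76 ± 0.14, adjusted p = 6.7e-05. It fell by 0.45 on the log2 scale in off-dox sgPcyt2 cells (adjusted p = 0.0035). That call ended without on-dox sgPcyt2 replicate 1 (log2 change -0.36) and by DESeq2. With p53WT Morrbid gave no call (-0.01 ± 0.13, adjusted p = 0.99).

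Members linked to p53 in earlier work were few. Of a list of 14 such noncoding RNAs, 10 are in the tables and 2, Pvt1 and Neat1, reached the level set here. Pvt1 (chromosome 15, 62038061 to 62250973, plus strand) lies beside Myc and hosts several microRNAs. It had 28.3, 22.1 and 21.02 CPM in the off-dox KPsh libraries, against 11.6, 10.96 and 12.1 CPM in the on-dox KPsh libraries, 1.08 ± 0.12, adjusted p = 5.1e-08. The KPnull cells showed 17.2 and 14.4 CPM in the p53WT libraries, against 10.5 and 10.5 CPM in the vector libraries, 0.63 ± 0.11, adjusted p = 2.0e-04, and with TAD2m 14.9 and 15.9 CPM, 0.59 ± 0.11, adjusted p = 3.9e-04. Off-dox sgPcyt2 cells had 23.1 and 25.02 CPM, against 9.38 and 9.88 CPM on-dox, and off-dox cDNA cells 27.9 and 31.5 CPM, against 8.73 and 9.31 CPM on-dox. Those are log2 changes of 1.30 ± 0.11 in sgPcyt2 cells and 1.69 ± 0.11 in cDNA cells. Every off-dox or p53WT library of Pvt1 lay above every library it was set against. Myc itself changed by -0.01 ± 0.05, adjusted p = 0.9 in off-dox KPsh cells and by 0.06 ± 0.09, adjusted p = 0.59 with p53WT.

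Mir17hg, the one member on the list of microRNA hosts, moved the other way. It (chromosome 14, 115042879 to 115046727, plus strand) is the precursor of the miR-17-92 cluster, microRNAs that promote proliferation, and shares exon bases with no tested gene. The mature microRNAs of the cluster, from RefSeq on GRCm38.p6, fall in 4 seed classes; bases 2 to 8, the seed that pairs with targets, are in capitals. miR-17-5p and miR-20a-5p share the seed AAAGUGC and miR-19a-3p and miR-19b-3p share GUGCAAA. The counts are of the exons of the host gene, and the mature microRNAs were not counted.
mmu-miR-17-5p: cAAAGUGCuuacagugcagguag
mmu-miR-18a-5p: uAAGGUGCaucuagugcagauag
mmu-miR-19a-3p: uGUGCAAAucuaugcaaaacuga
mmu-miR-20a-5p: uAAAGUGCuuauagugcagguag
mmu-miR-19b-3p: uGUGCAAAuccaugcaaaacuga
mmu-miR-92a-3p: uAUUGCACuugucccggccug
Mir17hg had 13.4, 13.3 and 8.36 CPM in the off-dox KPsh libraries, against 20.8, 19.7 and 23.7 CPM in the on-dox KPsh libraries, a log2 change of -0.83 ± 0.14, adjusted p = 5.7e-05. In KPnull cells it stood at 8.32 and 8.51 CPM in the p53WT libraries, against 15.8 and 17.7 CPM in the vector libraries, -0.95 ± 0.12, adjusted p = 6.9e-06. TAD2m libraries were at 8.61 and 10.7 CPM (-0.75 ± 0.12, adjusted p = 7.6e-05), while TAD1m and TAD12m libraries, at 14.4 and 13.96 CPM and 17.9 and 16.5 CPM, showed no call (-0.24 ± 0.11, adjusted p = 0.11 for TAD1m and 0.04 ± 0.11, adjusted p = 0.96 for TAD12m). TAD1m exceeded p53WT by 0.71 ± 0.13, adjusted p = 2.7e-04. The fall was deepest in the Pcyt2 set, with 6.33 and 6.30 CPM in the off-dox sgPcyt2 libraries, against 17.9 and 20.7 CPM in the on-dox sgPcyt2 libraries (-1.64 ± 0.13), and 5.47 and 6.47 CPM in the off-dox cDNA libraries, against 17.9 and 19.9 CPM in the on-dox cDNA libraries (-1.68 ± 0.13). The groups did not overlap in any of these 4 off-dox or p53WT comparisons.

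Of the list of 22 small nucleolar RNA (snoRNA) hosts, genes whose introns hold the RNAs that guide ribosomal RNA modification, 6 are members. Snhg16 fell in the off-dox state of all 3 KPsh-derived sets and with p53WT, with 15.3, 13.2 and 12.8 CPM in the off-dox KPsh libraries, against 20.96, 23.6 and 19.8 CPM in the on-dox KPsh libraries (-0.59 ± 0.11, adjusted p = 6.7e-05). With p53WT it had 11.1 and 12.8 CPM in the p53WT libraries, against 16.1 and 15.5 CPM in the vector libraries (-0.36 ± 0.11, adjusted p = 0.012), a call that ended without vector replicate 1 (adjusted p = 0.07) or p53WT replicate 1 (adjusted p = 0.14). DESeq2 did not call Snhg16 with p53WT (adjusted p = 0.105). Off-dox it changed by -0.66 ± 0.13 in sgPcyt2 cells and -0.86 ± 0.12 in cDNA cells, and it shares 17.9% of its exon bases with St6galnac2. Snhg6 took opposite directions. It had 13.8 and 17.4 CPM in the off-dox sgPcyt2 libraries, against 32.99 and 31.4 CPM in the on-dox sgPcyt2 libraries (-1.07 ± 0.10, adjusted p = 1.2e-13), and in KPsh cells 37.4, 30.3 and 36.2 CPM off-dox, against 28.2, 32.6 and 26.5 CPM on-dox (0.31 ± 0.10, adjusted p = 0.0073), where the groups overlap and the call ended without on-dox replicate 3 (adjusted p = 0.069). Over the 6 members, 2 rose and 1 fell in off-dox KPsh cells, where 33.1% of all genes rose and 31.7% fell. With p53WT 3 fell and with TAD2m 5, against a share of lower calls of 25.1% and 24.2% over all genes. Snhg12 had 23.997 and 22.7 CPM in the p53WT libraries, against 32.2 and 30.2 CPM in the vector libraries (-0.38 ± 0.08, adjusted p = 0.001), and changed by -0.57 ± 0.08, adjusted p = 3.2e-05 with TAD2m. The third member lower with p53WT was Snhg6 (-0.39 ± 0.10, adjusted p = 0.0041), not called without p53WT replicate 2 (adjusted p = 0.075). Of the TAD2m calls, those of Snhg15 (-0.32 ± 0.11, adjusted p = 0.028) and Epb41l4aos (-0.42 ± 0.13, adjusted p = 0.011) both ended without vector replicate 2, TAD2m replicate 1 or TAD2m replicate 2, at adjusted p between 0.055 and 0.15. DESeq2 did not call Snhg15 with TAD2m (adjusted p = 0.15). In off-dox KPsh cells Snhg15 rose (0.39 ± 0.10, adjusted p = 0.0025), and Epb41l4aos rose in off-dox sgPcyt2 cells (0.79 ± 0.12, adjusted p = 1.3e-07). Snhg20 was called in none of these comparisons, with changes of -0.10 ± 0.10, adjusted p = 0.36 in KPsh cells and 0.10 ± 0.15, adjusted p = 0.63 with p53WT. The whole list, other biotypes included, had 3 higher and 9 lower of 20 tested in KPsh cells, where 33.1% and 31.7% of all genes were. With p53WT it had 1 higher and 11 lower, against 25.5% and 25.1% of all genes. In off-dox sgPcyt2 cells 3 were higher and 10 lower of 19, against 39.2% and 37.1% of all genes.

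Of 4 members known as imprinted or X-inactivation RNAs, none rose and 2 fell in off-dox KPsh cells, 1 rose and 2 fell with p53WT, 3 rose and none fell in off-dox sgPcyt2 cells, and 2 rose and 1 fell in off-dox cDNA cells. The shares of all genes higher and lower were 33.1% and 31.7% in KPsh cells, 25.5% and 25.1% with p53WT, 39.2% and 37.1% in sgPcyt2 cells and 37.3% and 36.3% in cDNA cells. The members that fell with p53WT were Ftx (-0.52 ± 0.16, adjusted p = 0.015) and Jpx, an activator of Xist (-0.73 ± 0.27, adjusted p = 0.034). Both calls ended without vector replicate 1, at an adjusted p of 0.4 for Ftx and 0.6 for Jpx, and without p53WT replicate 1 (0.13 and 0.11), and neither was called by DESeq2. Jpx also lost its call without p53WT replicate 2 (adjusted p = 0.12). In off-dox sgPcyt2 cells Jpx rose (0.70 ± 0.22, adjusted p = 0.0033), a call that ended without off-dox sgPcyt2 replicate 1 (adjusted p = 0.11). DESeq2 did not call this rise of Jpx. Airn, the imprinted antisense transcript of the Igf2r locus, had 4.79 and 5.63 CPM in the p53WT libraries, against 2.65 and 3.25 CPM in the vector libraries (0.86 ± 0.18, adjusted p = 8.6e-04), and 7.002 and 5.48 CPM in the off-dox sgPcyt2 libraries, against 1.69 and 1.44 CPM in the on-dox sgPcyt2 libraries (1.95 ± 0.23, adjusted p = 2.7e-10). In KPsh cells it stood at 1.49, 1.63 and 1.28 CPM off-dox, against 1.49, 1.06 and 1.502 CPM on-dox, with no call (0.14 ± 0.29, adjusted p = 0.7). Kcnq1ot1, which silences genes around Kcnq1 on the paternal allele, went down in KPsh cells (-0.41 ± 0.13, adjusted p = 0.0097, no longer called without on-dox replicate 3, adjusted p = 0.088) and up in off-dox sgPcyt2 cells (0.67 ± 0.10, adjusted p = 1.6e-07). Its levels were 31.3 and 26.9 CPM off-dox, against 16.9 and 19.3 CPM on-dox. Ftx, a neighbour of Xist at the X-inactivation centre, had 14.2 and 14.6 CPM off-dox, against 13.2 and 14.2 CPM on-dox in sgPcyt2 cells (0.05 ± 0.11, adjusted p = 0.71). In the cDNA cells it had 8.38 and 9.26 CPM off-dox, against 18.01 and 17.6 CPM on-dox (-1.04 ± 0.12, adjusted p = 8.6e-11), and the 2 effects differed by 1.08 ± 0.16, adjusted p = 9.3e-07. Airn and Kcnq1ot1 share exon bases with no tested gene, and Ftx with no coding gene.

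Members free of exon overlap include little-studied RNAs with large rises. C130083M11Rik (chromosome 5, 52199984 to 52216434, minus strand) had 4.95, 8.18 and 6.62 CPM in the off-dox KPsh libraries, against 1.37, 2.02 and 1.23 CPM in the on-dox KPsh libraries, 2.19 ± 0.24, adjusted p = 6.5e-08. In KPnull cells it reached 6.69 and 9.75 CPM in the p53WT libraries, against 1.31 and 2.09 CPM in the vector libraries, 2.31 ± 0.24, adjusted p = 4.6e-07. TAD2m libraries were at 7.97 and 6.44 CPM, TAD1m at 4.30 and 4.24 CPM and TAD12m at 1.58 and 1.58 CPM. The TAD1m libraries lay between those of p53WT and vector, below p53WT (-0.98 ± 0.20, adjusted p = 9.4e-04) and above vector by 1.33 ± 0.26 (adjusted p = 7.1e-04). In the Pcyt2 set it had 17.4 and 15.5 CPM in the off-dox sgPcyt2 libraries, against 0.891 and 1.44 CPM in the on-dox sgPcyt2 libraries (3.78 ± 0.20), and 20.8 and 18.3 CPM in the off-dox cDNA libraries, against 1.88 and 1.69 CPM in the on-dox cDNA libraries (3.43 ± 0.17). It passed 2 CPM in 6 of the 11 groups.

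G930009F23Rik, also free of overlap, had 4.42, 5.06 and 4.06 CPM in the off-dox KPsh libraries, against 0.767, 0.798 and 0.424 CPM in the on-dox KPsh libraries, 2.73 ± 0.28, adjusted p = 1.5e-08. The KPnull cells had 5.92 and 5.39 CPM in the p53WT libraries, against 1.11 and 1.92 CPM in the vector libraries, 1.97 ± 0.24, adjusted p = 3.4e-06, and TAD1m was below p53WT (-1.08 ± 0.21, adjusted p = 7.3e-04). Among the Pcyt2 libraries it lay at or below 1.13 CPM in every library, and its call in off-dox cDNA cells (1.97 ± 0.54, adjusted p = 0.0013) ended without on-dox cDNA replicate 2 (adjusted p = 0.091). DESeq2 also did not call G930009F23Rik in off-dox cDNA cells. AW112010, a transcript annotated as noncoding and known from immune stimulation, was near 0 on-dox and reached 2 CPM in 4 groups. It had 2.59, 1.81 and 2.11 CPM off-dox, against 0.242, 0.213 and 0.154 CPM on-dox in KPsh cells, 72.5 counts against 7 in all, a CPM ratio of 10.7 with a 95% counting interval of 4.99 to 27.8. In sgPcyt2 cells 234.5 counts off-dox stood against 1 on-dox, a ratio of 250 with an interval of 44.5 to 9926, and in cDNA cells 150 counts against 0, at least 49.5-fold higher when 3 counts over the group are taken as the floor. With p53WT the same RNA did not pass the test, at 1.78 and 1.67 CPM against 1.49 and 1.53 CPM with vector (0.24 ± 0.25, adjusted p = 0.49). These intervals cover counting error only.

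Among members free of overlap that fell, Gm35019 had 15.999, 16.2 and 16.2 CPM in the off-dox KPsh libraries, against 63.1, 64.2 and 75.3 CPM in the on-dox KPsh libraries, -2.01 ± 0.09, adjusted p = 1.4e-14, and no call with p53WT (-0.10 ± 0.08, adjusted p = 0.33). In off-dox sgPcyt2 cells it went the other way, with 131 and 118 CPM, against 46.8 and 50.2 CPM on-dox (1.33 ± 0.06, adjusted p = 2.3e-23). The change in cDNA cells was 0.30 ± 0.06, adjusted p = 6.7e-05, smaller than in sgPcyt2 cells by the interaction (1.04 ± 0.09, adjusted p = 9.3e-13). Wincr1, a lincRNA known as a target of Wnt signalling, differed between the same sets. It had 24.5, 22.7 and 25.5 CPM in the off-dox KPsh libraries, against 11.4, 9.69 and 12.02 CPM in the on-dox KPsh libraries (1.18 ± 0.11, adjusted p = 3.5e-09), and 10.8 and 13.8 CPM in the off-dox sgPcyt2 libraries, against 37.7 and 32.9 CPM in the on-dox sgPcyt2 libraries (-1.55 ± 0.10, adjusted p = 1.5e-18). In cDNA cells its change was -0.25 ± 0.10, adjusted p = 0.025, a call lost without any one of the 4 cDNA libraries (adjusted p between 0.059 and 0.1) and by DESeq2 (adjusted p = 0.17), and the interaction was -1.30 ± 0.14, adjusted p = 5.4e-10. Bc1, a small neuronal RNA made by RNA polymerase III, varied widely within groups. It had 26.9, 132 and 90.95 CPM in the off-dox KPsh libraries, against 148, 59.2 and 88.7 CPM in the on-dox KPsh libraries, overlapping groups. It was at most 0.277 CPM in any KPnull library, and in the Pcyt2 set 0.808 and 0.501 CPM off-dox, against 5.38 and 3.87 CPM on-dox in sgPcyt2 cells (-2.83 ± 0.30, adjusted p = 1.4e-11).

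Lockd starts downstream of Cdkn1b, the gene of the cell-cycle inhibitor p27, and shares exon bases with no coding gene. It had 0.875 and 0.501 CPM in the off-dox sgPcyt2 libraries, against 7.13 and 5.71 CPM in the on-dox sgPcyt2 libraries (-3.22 ± 0.28, adjusted p = 1.6e-14), and 1.08 and 0.625 CPM in the off-dox cDNA libraries, against 7.17 and 7.50 CPM in the on-dox cDNA libraries (-3.10 ± 0.25, adjusted p = 2.4e-15). With p53WT it had 4.27 and 4.05 CPM in the p53WT libraries, against 8.93 and 8.72 CPM in the vector libraries (-1.04 ± 0.16, adjusted p = 4.1e-05), with TAD2m 4.29 and 4.47 CPM, and with TAD1m 8.75 and 11.5 CPM, above p53WT by 1.22 ± 0.16, adjusted p = 1.1e-05. KPsh cells showed 5.38, 4.61 and 6.08 CPM off-dox, against 6.34, 7.50 and 6.16 CPM on-dox, and no call (-0.25 ± 0.17, adjusted p = 0.2). Cdkn1b changed by -1.05 ± 0.10, adjusted p = 2.8e-07 there and by -0.90 ± 0.06, adjusted p = 8.0e-19 in off-dox sgPcyt2 cells.

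**Figure D4:**
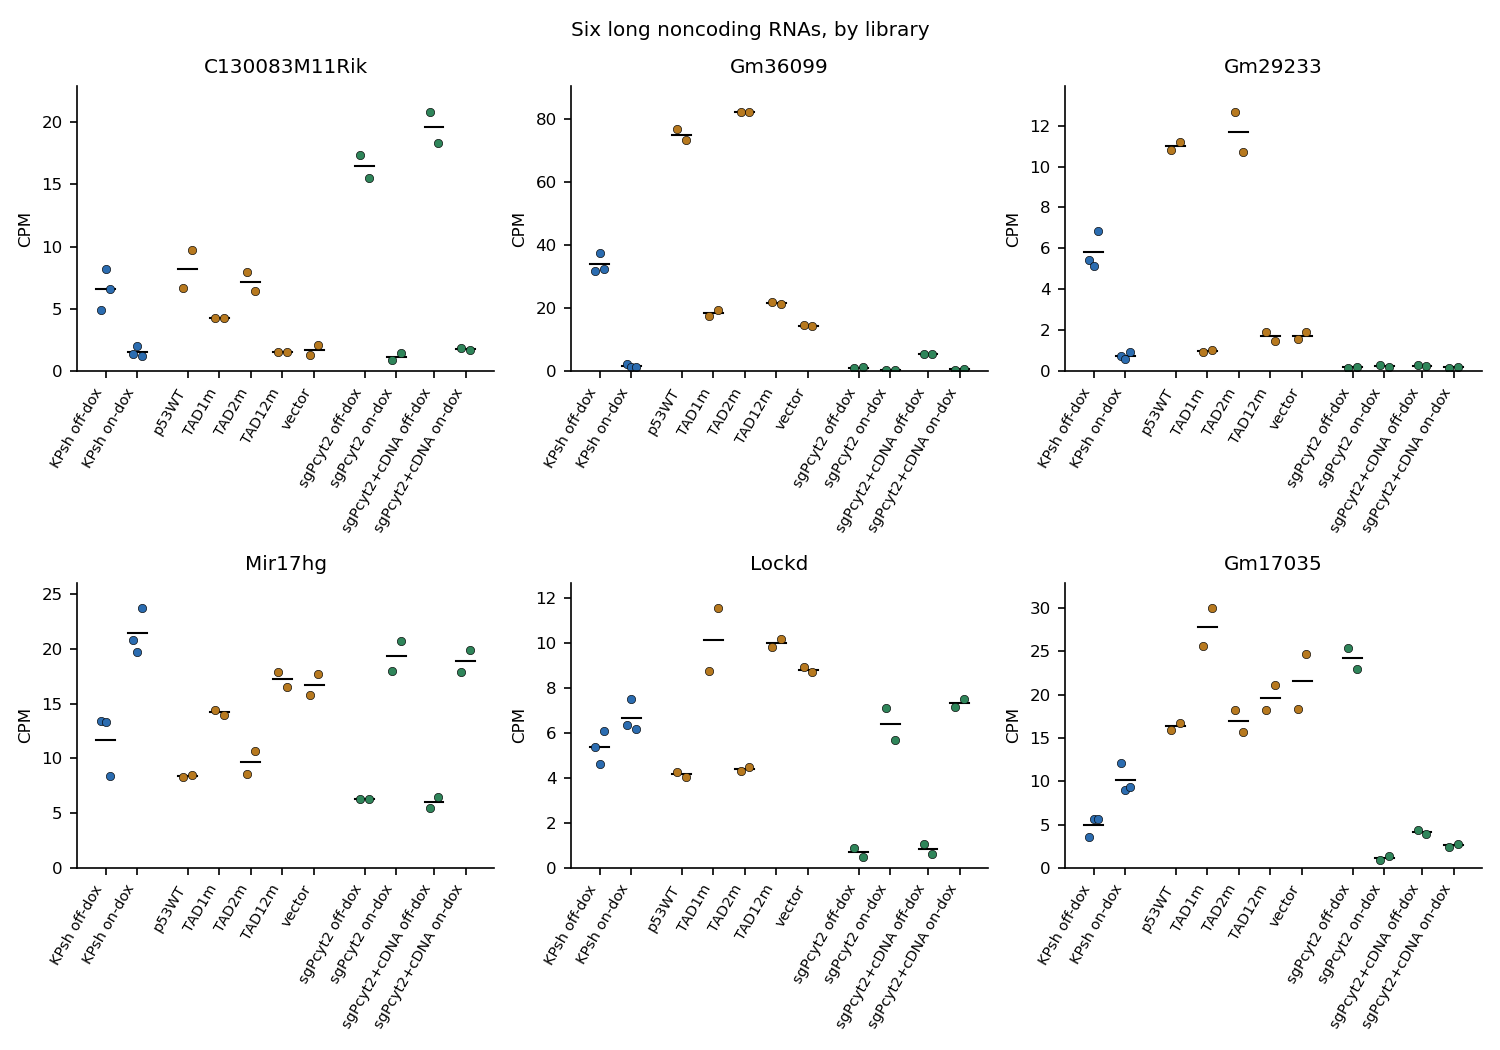
CPM of 6 members in each library (points), with group means (black lines), for the KPsh, KPnull and Pcyt2 sets. C130083M11Rik, Gm36099 and Gm29233 are higher with p53WT and TAD2m than with vector and TAD12m, and Mir17hg and Lockd the reverse. Gm36099 is also higher with TAD12m than with vector. Gm17035 is high off-dox in sgPcyt2 cells (25.4 and 22.98 CPM, against 0.923 and 1.34 CPM on-dox).

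Promoter windows are shown for one member that rose and one that fell, beside Cdkn1a as a known p53 target. Each holds 250 bases before to 50 bases after the annotated start, 5' to 3' on the gene's strand, from RefSeq on GRCm38.p6. In the Cdkn1a window (chr17:29090729-29091028, plus strand), 1 of 2 for this gene, the capitals mark 2 p53 half-sites. These are 10-base motifs named here by the factor alone, searched on both strands. They match with 0 mismatches, are separated by a spacer of 12 bases and begin 73 bases before the start. Of the 2 pairs in this window, the one with the fewest mismatches is marked. The other joins the second marked site to the 10 bases right after it, left in small letters, with 1 mismatch and no spacer. The windows of C130083M11Rik (chr5:52216384-52216683, minus strand) and Lockd (chr6:134928842-134929141, plus strand) hold no half-site, which says only that the motif is not in these letters.
Cdkn1a: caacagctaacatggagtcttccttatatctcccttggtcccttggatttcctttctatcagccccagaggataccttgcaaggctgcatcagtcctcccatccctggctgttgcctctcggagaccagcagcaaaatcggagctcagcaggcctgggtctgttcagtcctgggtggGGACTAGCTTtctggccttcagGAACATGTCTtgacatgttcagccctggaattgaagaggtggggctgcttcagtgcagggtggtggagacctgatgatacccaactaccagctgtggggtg
C130083M11Rik: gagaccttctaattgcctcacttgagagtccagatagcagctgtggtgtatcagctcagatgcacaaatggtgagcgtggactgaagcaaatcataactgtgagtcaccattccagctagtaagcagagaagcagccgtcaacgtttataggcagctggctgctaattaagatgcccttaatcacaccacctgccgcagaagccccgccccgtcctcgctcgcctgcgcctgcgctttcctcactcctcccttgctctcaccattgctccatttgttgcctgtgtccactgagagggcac
Lockd: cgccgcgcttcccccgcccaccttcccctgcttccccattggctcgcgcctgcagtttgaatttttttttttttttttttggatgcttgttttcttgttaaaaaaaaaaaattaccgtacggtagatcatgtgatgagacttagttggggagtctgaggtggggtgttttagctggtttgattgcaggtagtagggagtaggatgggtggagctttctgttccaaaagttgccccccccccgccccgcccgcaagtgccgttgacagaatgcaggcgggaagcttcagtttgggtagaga
RefSeq windows were found for 233 member symbols, with 303 windows in all. A half-site stood in 20 of these windows, 6.601%, against 8.36% of all 32851 promoter windows, and a pair with at most 1 mismatch in each and a spacer of up to 13 bases in 1.98%, against 2.71%. Of the 22 windows of members that rose in all 4 contrasts described below, 3 held a half-site and none a pair.

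Several antisense members changed together with the gene they overlap. Gm36099 (chromosome 13, 33031202 to 33034560, minus strand) had 31.8, 37.5 and 32.5 CPM in the off-dox KPsh libraries, against 2.34, 1.28 and 1.23 CPM in the on-dox KPsh libraries, 4.42 ± 0.17, adjusted p = 1.0e-15, the highest called member in KPsh cells. Serpinb9b, a serine protease inhibitor gene that shares 15.5% of its exon bases, changed by 4.75 ± 0.08 there. With p53WT Gm36099 had 76.5 and 73.2 CPM in the p53WT libraries, against 14.8 and 14.2 CPM in the vector libraries (2.41 ± 0.08, adjusted p = 5.4e-13), and Serpinb9b changed by 2.46 ± 0.05. TAD2m libraries were at 82.1 and 82.04 CPM, TAD1m at 17.6 and 19.5 CPM and TAD12m at 21.8 and 21.2 CPM. The TAD12m libraries also lay above vector, by 0.56 ± 0.09 (adjusted p = 8.7e-04). The difference of TAD1m from p53WT was -2.06 ± 0.08 for Gm36099 and -2.02 ± 0.05 for Serpinb9b.

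Gm29233 shares 74% of its exon bases with Thbs1, which encodes the secreted inhibitor of angiogenesis thrombospondin-1. It had 5.43, 5.15 and 6.87 CPM in the off-dox KPsh libraries, against 0.767, 0.585 and 0.924 CPM in the on-dox KPsh libraries (2.90 ± 0.26, adjusted p = 1.6e-09), with Thbs1 at 2.71 ± 0.08. In KPnull cells it had 10.8 and 11.2 CPM in the p53WT libraries, against 1.57 and 1.92 CPM in the vector libraries (2.69 ± 0.18, adjusted p = 2.7e-09), with Thbs1 at 2.64 ± 0.07. TAD1m libraries, at 0.966 and 1.06 CPM, lay below p53WT, with a change of -3.44 ± 0.20, adjusted p = 1.4e-09, the lowest called member of that comparison, with Thbs1 at -3.11 ± 0.08. Gm29233 did not pass the filter on low counts in the Pcyt2 set. It reached the level set here through groups where it was high, among them off-dox KPsh and p53WT cells, so its changes are descriptions. Gm15675 and Cd55os, which share exon bases with each other and with no tested coding gene, had the highest changes with p53WT. Gm15675 had 4.14 and 5.59 CPM in the p53WT libraries, against 0.206 and 0.166 CPM in the vector libraries (4.58 ± 0.39, adjusted p = 5.2e-08), and 19.3 and 18.1 CPM in the off-dox sgPcyt2 libraries, against 0.318 and 0.200 CPM in the on-dox sgPcyt2 libraries, a CPM ratio of 71.8 with a counting interval of 36.2 to 167. Cd55os had 1.63 and 2.58 CPM in the p53WT libraries, against 0.206 and 0.133 CPM in the vector libraries (3.59 ± 0.46, adjusted p = 6.2e-06). Gm43791, which lies almost wholly over exons of Rgs12, a regulator of G-protein signalling, had 8.79, 7.14 and 7.57 CPM in the off-dox KPsh libraries, against 0.767, 0.745 and 0.732 CPM in the on-dox KPsh libraries (3.37 ± 0.23, adjusted p = 3.0e-11), with Rgs12 at 3.12 ± 0.09.

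Gm16638, over the transmembrane channel gene Tmc3, was among the highest called members in off-dox cDNA cells. It had 21.3 and 24.4 CPM in the off-dox cDNA libraries, against 0.906 and 1.37 CPM in the on-dox cDNA libraries (4.23 ± 0.18, adjusted p = 3.4e-25), with Tmc3 at 3.96 ± 0.20.

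Several antisense members that fell in the Pcyt2 set lie over cell-division genes. Gm38037 shares 18.4% of its exon bases with Nek2, a kinase of the centrosome, Gm14024 32.3% with Ckap2l, a spindle protein gene, Gm14091 14.1% with Knstrn, a kinetochore protein gene, and Gm11491 28.1% with Ska2, another kinetochore gene. Off-dox in sgPcyt2 cells they changed by -3.70 ± 0.33, -3.55 ± 0.30, -2.89 ± 0.17 and -2.33 ± 0.14. Their partners changed by -3.92 ± 0.10 (Nek2), -3.72 ± 0.09 (Ckap2l), -2.84 ± 0.07 (Knstrn) and -2.18 ± 0.07 (Ska2). Gm38037, Gm14024 and Gm14091 were among the 5 lowest called members there. With p53WT the lowest was Gm38563, free of exon overlap (-1.38 ± 0.38, adjusted p = 0.0065), a call lost without vector replicate 1 (0.15) and p53WT replicate 1 (0.062) (adjusted p in parentheses). DESeq2 did not call Gm38563 (adjusted p = 0.094). It was followed by Gm14091 (-1.37 ± 0.15, adjusted p = 1.2e-06) and Gm38037 (-1.23 ± 0.21, adjusted p = 1.3e-04).

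Among the members that fell furthest in off-dox KPsh cells were Gm49498 and D030024E09Rik, which share exon bases with each other and whose reads cannot be told apart. Gm49498 had 0.769, 0.497 and 0.538 CPM in the off-dox KPsh libraries, against 2.46, 3.03 and 3.62 CPM in the on-dox KPsh libraries (-2.22 ± 0.31, adjusted p = 1.4e-06), and D030024E09Rik had 0.769, 0.497 and 0.538 CPM in the off-dox KPsh libraries, against 2.42, 3.03 and 3.50 CPM in the on-dox KPsh libraries (-2.20 ± 0.31, adjusted p = 1.8e-06). Gm26749, which overlaps Birc6, had 1.11, 2.03 and 1.82 CPM in the off-dox KPsh libraries, against 6.87, 7.29 and 9.20 CPM in the on-dox KPsh libraries (-2.15 ± 0.22, adjusted p = 1.7e-08), with Birc6 at -1.05 ± 0.08. In all 3 members the off-dox libraries lay below the on-dox ones without overlap. In the Pcyt2 set Gm49498 and D030024E09Rik went the other way off-dox. They rose by 2.08 ± 0.16 and 2.06 ± 0.16 in sgPcyt2 cells and by 0.77 ± 0.20 and 0.72 ± 0.20 in cDNA cells. Gm26749 fell there too, with changes of -0.42 in sgPcyt2 and -0.70 in cDNA cells.

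The transactivation mutants were set against vector and against p53WT, in fits that share the vector or the p53WT libraries. TAD1m raised 73 and lowered 48 of 599 members, 20.2% against 36.4% of all genes, 19% of them higher, and TAD2m raised 105 and lowered 81, 31.1% against 49.1%, of which 24.9% higher and 24.2% lower. TAD12m raised 6 and lowered 6, 2.00% against 3.85%, of which 2% higher and 1.85% lower. The highest TAD12m change was that of 6330403L08Rik (1.39 ± 0.38, adjusted p = 0.0499), a call lost without vector replicate 1 (adjusted p = 0.42), TAD12m replicate 1 (adjusted p = 0.06) or TAD12m replicate 2 (adjusted p = 0.19), and with the replicate number as a block (adjusted p = 0.07). The lowest were Gm16178, at 0.829 and 1.30 CPM against 2.32 and 2.75 CPM with vector (-1.22 ± 0.27, adjusted p = 0.016), and Gm49980 (-1.18 ± 0.18, adjusted p = 8.6e-04), both free of exon overlap. The Gm16178 call ended without vector replicate 2 or TAD12m replicate 1, with an adjusted p of 0.095 and 0.13. Gm26787, over the gene Ei24 (-1.36 ± 0.08, adjusted p = 5.0e-08), changed by -0.99 ± 0.23, adjusted p = 0.022, and BC037039, over the protocadherin gene Pcdhgc3 (-0.43 ± 0.07, adjusted p = 0.0023), by -0.56 ± 0.13, adjusted p = 0.026. Gm16172, over Tmem63b (0.62 ± 0.07, adjusted p = 9.4e-05), changed by 0.51 ± 0.13, adjusted p = 0.032, and Gm26811, over the semaphorin receptor gene Plxna1 (0.39 ± 0.09, adjusted p = 0.043), by 0.50 ± 0.09, adjusted p = 0.0036. Each of these 4 calls ended when one or the other vector library was left out. With TAD12m, DESeq2 did not call Gm26787 (adjusted p = 0.19), Gm16172 (0.052), Gm16178 (0.064) or 6330403L08Rik (0.12). Gm45767, over the myelin protein gene Pllp, was among the lowest with TAD12m (-0.51 ± 0.08, adjusted p = 1.0e-03) and with TAD1m (-0.93 ± 0.08, adjusted p = 1.8e-07), where Pllp changed by -0.54 ± 0.08 with TAD12m and -1.02 ± 0.08 with TAD1m. Also among the lowest with TAD1m was Gm16537 (-0.87 ± 0.12, adjusted p = 3.1e-05), over the glycerol phosphate dehydrogenase gene Gpd1 (-0.91 ± 0.08). With TAD2m Gm50469 was among the lowest (-1.27 ± 0.35, adjusted p = 0.0058), a call lost without vector replicate 1 (adjusted p = 0.076) and by DESeq2 (adjusted p = 0.093).

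Against p53WT, TAD1m raised 62 and lowered 72 members, 22.4% against 39.1% of all genes, 20.4% higher and 18.7% lower. TAD2m lowered 1 and raised none by edgeR's quasi-likelihood test, 0.167% of 599 members against 0.285% of all genes; at an unadjusted p under 0.05 it had 12 higher and 10 lower, and DESeq2 called none higher and 1 lower. That member was Gm42047, free of exon overlap, with 59.8 and 56.6 CPM in the TAD2m libraries, against 79.9 and 80.7 CPM in the p53WT libraries (-0.46 ± 0.07, adjusted p = 0.0072). Leaving out either TAD2m library or either p53WT library ended the call, with adjusted p between 0.081 and 0.23. The members that TAD1m raised most against p53WT were Lockd, Gm14091 (1.18 ± 0.15, adjusted p = 1.4e-05) and Gm50322 (1.17 ± 0.23, adjusted p = 7.5e-04), which all had lower levels with p53WT than with vector, and those it lowered most were Gm29233, Gm36099 and Gm15675 (-1.81 ± 0.26, adjusted p = 4.2e-05). Gm16170 and 6330403L08Rik, both antisense, rose with TAD1m and with p53WT. Gm16170, over the ubiquitin ligase gene Trim7, changed by 2.70 ± 0.35, adjusted p = 1.6e-05 with TAD1m and by 2.98 ± 0.34, adjusted p = 1.9e-06 with p53WT. 6330403L08Rik, over the growth factor gene Pdgfa, changed by 2.30 ± 0.34, adjusted p = 5.4e-05 with TAD1m and by 2.82 ± 0.32, adjusted p = 1.6e-06 with p53WT, and the direct differences of TAD1m from p53WT were -0.28 ± 0.23, adjusted p = 0.38 for Gm16170 and -0.52 ± 0.23, adjusted p = 0.091 for 6330403L08Rik.

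The sgPcyt2 cells were also set against the cDNA cells at the same doxycycline state. Pcyt2 transcripts stood at 2204 to 2598 CPM in the cDNA cells, and at 83.8, 81.7 and 88.2 CPM in the off-dox and 115, 107 and 110.4 CPM in the on-dox libraries of the separately tabulated KPsh cells, so that loss of Pcyt2 and high expression of the cDNA cannot be told apart here. On-dox, 40 members were higher and 20 lower of 595, 10.1% against 18.4% of all genes, 8.4% higher and 10% lower. Off-dox, 53 were higher and 57 lower, 18.5% against 33.1%, 16.3% higher and 16.8% lower. The highest on-dox was Gm47547, free of overlap (1.62 ± 0.15, adjusted p = 5.7e-12), and the lowest were the 2 overlapping genes that share the symbol C730027H18Rik, whose calls both ended without on-dox cDNA replicate 2, at an adjusted p of 0.34 for one gene and 0.058 for the other. One of the calls also ended without on-dox sgPcyt2 replicate 1 (adjusted p = 0.14). A030001D20Rik followed them (-1.31 ± 0.18, adjusted p = 1.0e-07), over Rasip1, a gene of vessel formation (-1.35 ± 0.10). Off-dox the highest was Gm17035 (2.53 ± 0.14, adjusted p = 6.0e-20), which lies wholly within exons of Ndrg1, a gene induced by hypoxia and stress. Gm36099 was the lowest off-dox (-2.26 ± 0.26, adjusted p = 7.3e-10), at 0.943 and 1.32 CPM in sgPcyt2 cells, against 5.40 and 5.47 CPM in cDNA cells. Gm5106, over the drug transporter gene Abcb1b (-1.31 ± 0.06), was also lower (-1.57 ± 0.29, adjusted p = 2.8e-05). Members free of overlap had 11 higher and 1 lower on-dox, and 18 higher and 6 lower off-dox, among 90.

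The effect of the off-dox state differed between sgPcyt2 and cDNA cells for 86 members, 37 with a higher and 49 with a lower change in sgPcyt2 cells, 14.5% of 595 against 25.2% of all genes, 12.8% higher and 12.4% lower. Gm17035 differed most. It had 25.4 and 22.98 CPM in the off-dox sgPcyt2 libraries, against 0.923 and 1.34 CPM in the on-dox sgPcyt2 libraries (4.37 ± 0.18), and 4.39 and 3.91 CPM in the off-dox cDNA libraries, against 2.43 and 2.77 CPM in the on-dox cDNA libraries (0.63 ± 0.21), a difference of 3.75 ± 0.31, adjusted p = 1.6e-13. In off-dox KPsh cells Gm17035 fell instead (-0.98 ± 0.18, adjusted p = 5.0e-05). Ndrg1 showed 4.03 ± 0.08 in sgPcyt2 and 0.76 ± 0.09 in cDNA cells. On the other side stood E230032D23Rik, which shares 9.66% of its exon bases with the death receptor gene Tnfrsf23. It had 8.15 and 8.30 CPM in the off-dox sgPcyt2 libraries, against 8.72 and 7.81 CPM in the on-dox sgPcyt2 libraries, overlapping values with no call (-0.03 ± 0.14, adjusted p = 0.85), and 14.3 and 13.2 CPM in the off-dox cDNA libraries, against 4.85 and 4.23 CPM in the on-dox cDNA libraries (1.58 ± 0.14, adjusted p = 1.5e-13). The difference was -1.61 ± 0.21, adjusted p = 2.0e-08. Gm16178, free of overlap, had 7.24 and 6.19 CPM in the off-dox cDNA libraries, against 1.12 and 1.87 CPM in the on-dox cDNA libraries, a change that exceeded that of sgPcyt2 cells (3.13 and 2.72 CPM off-dox, against 2.39 and 2.07 CPM on-dox), with a difference of -1.72 ± 0.34, adjusted p = 1.1e-04.

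The contrasts of off-dox KPsh cells, p53WT, off-dox sgPcyt2 cells and off-dox cDNA cells share no libraries. Of the 153 members higher in KPsh cells and the 119 higher with p53WT, 75 were in both, 49.0% of the first and 63.0% of the second, while over all genes tested the shares were 61.2% and 73.7%. Of the 148 and 85 lower members 51 were in both, 34.5% and 60%, against 60.8% and 71.4% over all genes. Between sgPcyt2 and cDNA cells 174 members rose in both, 82.1% of 212 and 79.8% of 218, against 81.1% and 85.3% over all genes. In both, 146 fell, 77.2% of 189 and 85.4% of 171, against 84.6% and 86.4%. Of the members called both in off-dox KPsh and in off-dox sgPcyt2 cells, 28 were higher in KPsh but lower in sgPcyt2 cells and 29 the reverse, while 75 were higher and 88 lower in both. Of those 220 members 25.9% moved in opposite directions, against 22.4% of 7386 genes. Set against off-dox cDNA cells, 15 were higher in KPsh but lower in cDNA cells, 25 the reverse, 95 higher in both and 86 lower in both, so that 18.1% of 221 members were opposite, against 13.2% of 7344 genes. These sets differ in days off doxycycline as well as in editing, which cannot be told apart.

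In all 4 contrasts 41 members rose and 38 fell, 6.97% and 6.46% of the 588 tested in each, against 15.3% and 16.2% of 13149 genes. Of these, 5 that rose and 6 that fell share no exon bases with a tested gene. C130083M11Rik rose most, as given above, with 9430018G01Rik, Gm20300, D830044D21Rik and 4632404H12Rik. 9430018G01Rik changed by 1.20, 1.88, 1.01 and 2.11 on the log2 scale in KPsh, p53WT, sgPcyt2 and cDNA cells, and Gm20300 by 0.71, 0.47, 2.27 and 1.44. Those that fell were Mir17hg, 4930461G14Rik, AU020206, 2700038G22Rik, Gm30177 and Rab26os. AU020206 had 35.2, 38.3 and 32.2 CPM in the off-dox KPsh libraries, against 60.3, 55.9 and 51.6 CPM in the on-dox KPsh libraries (-0.62 ± 0.08, adjusted p = 1.2e-06), and 32.3 and 33.7 CPM in the p53WT libraries, against 63.3 and 56.2 CPM in the vector libraries (-0.82 ± 0.08, adjusted p = 4.2e-07). 4930461G14Rik changed by -0.80 in KPsh cells, -0.36 with p53WT, -1.92 in sgPcyt2 and -1.98 in cDNA cells. Single libraries carried some of these calls. With p53WT, the call was lost for Gm20300 without vector replicate 2 (0.25), p53WT replicate 1 (0.12) and p53WT replicate 2 (0.11), the adjusted p standing in parentheses. It was lost for 4632404H12Rik without vector replicate 2 (0.22), p53WT replicate 1 (0.1) and p53WT replicate 2 (0.13), for D830044D21Rik without vector replicate 1 (0.074), vector replicate 2 (0.053) and p53WT replicate 2 (0.11), and for Rab26os without vector replicate 1 (0.12) and p53WT replicate 2 (0.058). In KPsh cells the call was lost for 9430018G01Rik without on-dox KPsh replicate 1 (0.062) and for Gm20300 without on-dox KPsh replicate 2 (0.055). The method mattered as well. DESeq2 did not call Gm20300 (0.14), 4632404H12Rik (0.17) or D830044D21Rik (0.13) with p53WT. Nor did it call 9430018G01Rik in KPsh cells (0.077) or D830044D21Rik in sgPcyt2 cells. Without scaling, edgeR lost the p53WT calls of Gm20300 (0.055) and 4632404H12Rik (0.059). C130083M11Rik, Mir17hg, 4930461G14Rik, AU020206, 2700038G22Rik and Gm30177 lost none of the 4 calls under any alternative run.

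**Figure D5:**
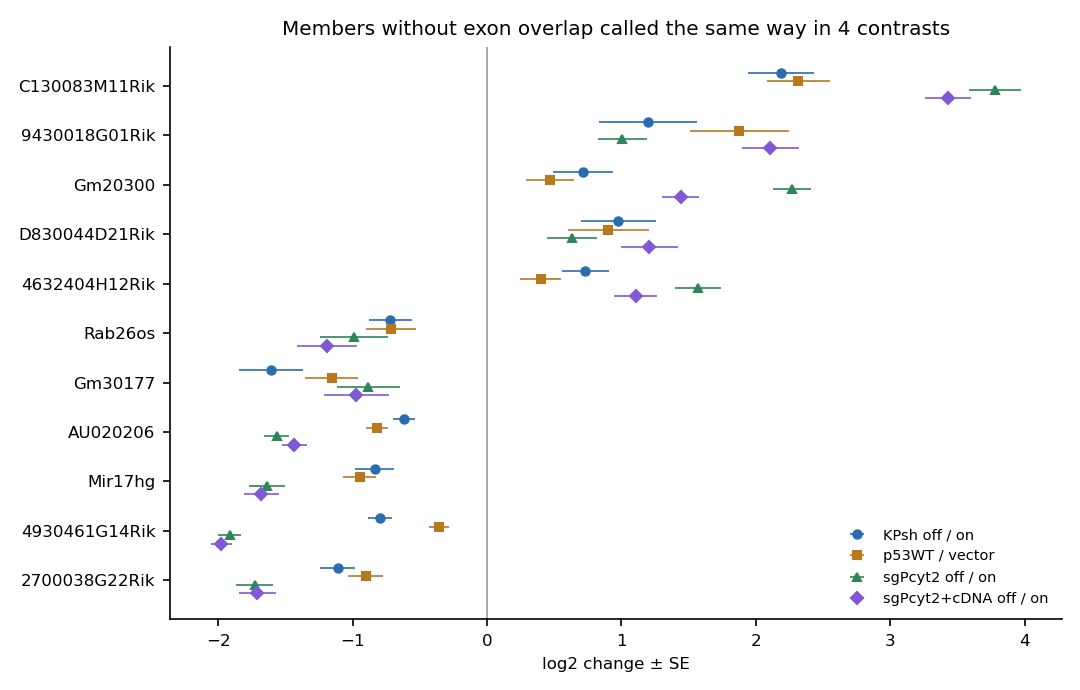
Log2 change ± SE of the 11 members that share no exon bases with a tested gene and were called in the same direction in 4 contrasts without common libraries (off over on doxycycline in KPsh, sgPcyt2 and cDNA cells, and p53WT over vector). C130083M11Rik heads those that rose, with changes between 2.19 and 3.78, and the 6 that fell stand below them.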

How the data were processed

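RNA-seq of 24 libraries was deposited in 3 tables of estimated counts, in steps of 0.5, made by the authors with HOMER over the exons of GENCODE vM25 genes on mm10, on both strands, with 1 transcript kept per gene and no normalization, per the file headers. Reads had been aligned with STAR 2.6.1c, per the submitters' processing notes. Some columns were matched to samples by elimination: the day-10 KPsh columns to off-dox and the Pcyt2 columns marked WT to the cDNA cells.

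Members were the lincRNA and antisense rows with a mean of at least 2 CPM, and members and gene lists were chosen with earlier results of these data known. Values ending in 0.5 were rounded up. Each table was filtered on low counts (filterByExpr), scaled by TMM and fitted apart in edgeR 4.0.16 (R 4.3.3) with 1 mean per group and robust quasi-likelihood tests, with Benjamini-Hochberg adjustment across every tested gene, and called at an adjusted p under 0.05. Levels set across tables are therefore only descriptions. In simulated data, 99% of genes changed by 1 log2 unit were recovered for KPsh (13990 genes), 98% for p53WT (15075 genes) and 99% for sgPcyt2 (14916 genes). Of genes changed by 0.5 log2 units, 86%, 81% and 79% were recovered. Every simulated gene had the same dispersion, which genes of the data need not share. Alternatives were no scaling, no filter, rounding down, other level limits, a replicate block, leaving out each library, and DESeq2 1.42.0. Counting intervals are 95%.

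Exon overlap came from GENCODE vM21, matched by gene ID for 602 members, and sequences from RefSeq on GRCm38.p6. In 23 members the counted transcript differed between tables. Named genes were the 10 highest per kb, the 5 highest and 5 lowest called members with non-overlapping libraries per comparison (3 and 3 between p53 forms and by Pcyt2 status), list members, those nearest the limit, and overlapping partners; Myc and Cdkn1b, outside this rule, are given as genomic neighbours of members. A member that this rule named is not reported here.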

Additional observations from a re-analysis of the deposited data

Results flagged for a closer look

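The effect of the off-dox state differed between sgPcyt2 and cDNA cells, by a test of the interaction itself, for 86 members. These were 14.5% of the 595 members tested, a smaller share than the 25.2% of all genes tested. Among those furthest from 0, in log2 units, were Gm17035 at 3.75 and 1 of the 2 genes named C730027H18Rik at 2.58, with a larger change in sgPcyt2 cells. On the other side were Gm5106 at -1.995, Gm16178 at -1.72 and E230032D23Rik at -1.61, with a larger change in cDNA cells. Gm17035 lies wholly within exons of Ndrg1, so its reads cannot be told apart from those of Ndrg1.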

How the results depend on the processing

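The number of members called depended on the member set. With a mean of at least 5 CPM it was 198 in KPsh, 255 in sgPcyt2 and 253 in cDNA cells off-dox against on-dox, and 69 for sgPcyt2 against cDNA off-dox. Without exon overlap it was 44 for KPsh, 38 for p53WT, 22 for TAD1m, 31 for TAD2m and 4 for TAD12m against vector, 24 for TAD1m against p53WT, 68 for sgPcyt2 and 61 for cDNA cells off-dox against on-dox, 12 on-dox and 24 off-dox for sgPcyt2 against cDNA, and 19 for the interaction; fewer members entered by construction. DESeq2 called 125 for p53WT, 64 for TAD1m, 117 for TAD2m, 6 for TAD12m, 81 for TAD1m against p53WT, 23 on-dox and 51 off-dox for sgPcyt2 against cDNA, and 48 for the interaction; the cause was not tested. With only the groups compared, 3 were called for TAD12m and 2 for TAD2m against p53WT. Leaving out 1 library gave 260 to 301 for KPsh, 145 to 191 for p53WT, 69 to 109 for TAD1m, 137 to 165 for TAD2m, 5 to 11 for TAD12m, 86 to 105 for TAD1m against p53WT, 0 to 1 for TAD2m against p53WT (the 1 was not Gm42047), 351 to 369 for sgPcyt2, 322 to 349 for cDNA, 35 to 45 on-dox and 65 to 102 off-dox for sgPcyt2 against cDNA, and 71 to 84 for the interaction. The lowest came without TAD1m replicate 2 (69), vector replicate 1 (5, TAD12m, with 7 without vector replicate 2 or TAD12m replicate 1), TAD1m replicate 1 (86, with 88 without p53WT replicate 1), on-dox cDNA replicate 1 (35, with 36 without replicate 2) and off-dox sgPcyt2 replicate 1 (65).

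With the replicate number as a block, the counts were 282 for KPsh, 204 for p53WT, 118 for TAD1m, 186 for TAD2m, 11 for TAD12m, 135 for TAD1m and 1 for TAD2m against p53WT, 397 for sgPcyt2, 382 for cDNA, 56 on-dox, 109 off-dox and 82 for the interaction. Same-numbered KPsh libraries deviated with correlations of -0.15 to -0.14, so the numbers do not pair them; those of KPnull libraries, whose groups of 2 share only a number, ran between -0.32 and 0.48 and those of Pcyt2 libraries between -0.09 and 0.01. Named results kept their direction under all alternatives run; 82 values lost their call under another setting and 173 without 1 library. In KPsh cells 40.6% of members at 2 to 5 CPM were called and 63.1% at 10 to 50 CPM; the part of counting error in this was not tested.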
